A study of Homo sapiens with 5 samples.

Results

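G-quadruplex (G4) regions that recurred between replicates of the prostate cancer cell line C4-2 were described along chromosome 7. Peaks of the 4 BG4 ChIP-seq replicates were pooled, peaks sharing at least 1 bp were merged, and a merged region was called recurrent when at least 2 replicates had a peak in it. Chromosome 7 held 359 of the 6835 recurrent regions of the genome, or 5.25%. Those 359 came from 548 merged regions on the chromosome, so 65.5% were recurrent, against a background of 63.0% over the whole genome. The other 189 merged regions had a peak in 1 replicate.

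A G4 is a multi-stranded fold of guanine-rich DNA in which guanines pair in planar tetrads that stack on one another. BG4 is a single-chain antibody that recognizes this fold, and in cells its binding sites are known to be found mostly in open chromatin near gene starts. Chromosome 7 carries gene families and segmental duplications whose copies are nearly identical, such as those flanking the Williams-Beuren region and the ARHGEF5 and OR2A genes, so a short read from one copy can be placed on another.

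The study mapped G4 structures in C4-2, a castration-resistant subline derived from LNCaP cells. The labels name the source as prostate cancer tissue and the cell line as C4-2, with no treatment or genotype beyond the line, so there was 1 condition. It comprised BG4 immunoprecipitates labelled replicates 1 to 4, which the methods call biological replicates, and 1 input library whose signal was not analysed here. Chromatin was crosslinked with formaldehyde and sonicated before immunoprecipitation. A single line without a comparison line cannot separate what belongs to C4-2 from what any cell would show.

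Positions of regions are given in GRCh37 (hg19), the build of the peak files. Peak lists hold no read counts, so the depth behind each value is unknown, and fold enrichment, the ratio of pulled-down signal to local background at the summit of a peak, was used as the measure of strength. The chromosome 7 peaks numbered 420 in replicate 1, 329 in replicate 2, 359 in replicate 3 and 228 in replicate 4. Replicate 4 had the fewest peaks, and it did so genome-wide as well, where the lists held 8036, 6192, 6805 and 4427 peaks in the same order. The share of each list on chromosome 7 was nearly constant, from 5.15% in replicate 4 to 5.31% in replicate 2.

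The sequences that RefSeq places upstream of named genes with a recurrent region are shown here because they differ in 2 features described below, G-rich motifs and repeated sequence. They are the 250 bases before the start site in GRCh38.p14, read on the gene's strand, and were matched by gene symbol and not by position, so they are not the sequences under the peaks. Capitals mark a G4 motif, defined as 4 runs of at least 3 G separated by 1 to 7 bases, on either strand. A motif on the opposite strand appears as runs of C, and overlapping motifs on 1 strand were counted once. TCAF2, the present symbol of FAM115C, lies at chr7:143620724-143620973 on the plus strand. ARHGEF35 lies at chr7:144195834-144196083 on the minus strand and ARHGEF5 at chr7:144355152-144355401 on the plus strand. PCLO lies at chr7:83162885-83163134 on the minus strand, CLDN3 at chr7:73770271-73770520 on the minus strand and EGFR at chr7:55018767-55019016 on the plus strand.
TCAF2: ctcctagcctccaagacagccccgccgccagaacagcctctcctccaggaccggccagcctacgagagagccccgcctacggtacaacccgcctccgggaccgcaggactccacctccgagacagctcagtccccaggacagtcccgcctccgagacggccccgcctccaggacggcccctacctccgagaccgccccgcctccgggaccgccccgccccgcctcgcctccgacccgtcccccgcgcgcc
ARHGEF35: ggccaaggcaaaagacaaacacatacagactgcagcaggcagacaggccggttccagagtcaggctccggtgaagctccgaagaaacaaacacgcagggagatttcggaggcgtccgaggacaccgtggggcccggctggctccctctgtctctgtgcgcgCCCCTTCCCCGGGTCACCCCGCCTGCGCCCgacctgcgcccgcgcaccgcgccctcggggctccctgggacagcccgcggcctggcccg
ARHGEF5: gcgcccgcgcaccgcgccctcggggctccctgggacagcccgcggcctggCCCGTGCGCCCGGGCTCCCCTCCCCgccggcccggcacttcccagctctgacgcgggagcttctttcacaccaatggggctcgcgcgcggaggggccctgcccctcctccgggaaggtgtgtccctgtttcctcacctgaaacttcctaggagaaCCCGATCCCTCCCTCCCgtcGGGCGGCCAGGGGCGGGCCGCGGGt
PCLO: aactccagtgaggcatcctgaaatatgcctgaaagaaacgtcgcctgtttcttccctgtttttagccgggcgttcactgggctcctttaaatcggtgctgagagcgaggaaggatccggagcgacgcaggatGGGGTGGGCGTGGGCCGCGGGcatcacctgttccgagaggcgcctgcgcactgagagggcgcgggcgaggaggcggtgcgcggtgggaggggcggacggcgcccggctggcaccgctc
CLDN3: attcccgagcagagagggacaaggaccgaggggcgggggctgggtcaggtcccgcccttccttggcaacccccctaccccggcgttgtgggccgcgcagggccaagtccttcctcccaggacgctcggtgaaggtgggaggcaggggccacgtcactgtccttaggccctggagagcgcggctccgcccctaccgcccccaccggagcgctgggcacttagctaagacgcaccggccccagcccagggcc
EGFR: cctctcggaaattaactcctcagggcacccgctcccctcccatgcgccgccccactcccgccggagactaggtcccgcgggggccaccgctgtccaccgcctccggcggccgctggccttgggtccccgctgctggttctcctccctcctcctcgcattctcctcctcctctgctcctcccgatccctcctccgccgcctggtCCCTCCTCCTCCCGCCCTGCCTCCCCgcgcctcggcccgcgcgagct

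The ARHGEF35 and ARHGEF5 sequences shared a stretch. The last 54 bases of the ARHGEF35 sequence, from position -54 to -1, were identical to the first 54 bases of the ARHGEF5 sequence, from -250 to -197. ARHGEF5 held 3 motifs, while ARHGEF35, PCLO and EGFR held 1 each, and none with these letters was found in the TCAF2 and CLDN3 windows. EGFR and TCAF2 each have a second RefSeq start whose upstream sequence is not printed, and neither of those held a motif. The PCLO motif ran from -118 to -98 with G on the gene's strand, and the EGFR motif ran from -47 to -22 with G on the opposite strand.

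Among the recurrent regions of chromosome 7, a peak in every replicate was the most common class of support. Of the 359 regions, 161 (44.8%) were found by all 4 replicates (exact Clopper-Pearson 95% interval 39.6 to 50.2), against 41.5% of recurrent regions over the whole genome, so the share was near the background. A further 101 regions (28.1%) had peaks in 3 replicates and 97 (27.0%) in 2. The interval covers counting error over regions only.

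Stronger and wider regions tended to have more support. Median mean fold enrichment was 6.39 in regions of 2 replicates, 7.49 in regions of 3 and 10.3 in regions of all 4. The ranges overlapped, from 3.79 to 11.6, from 5.06 to 13.4 and from 3.09 to 31.4 in the same order. The weakest recurrent region of the chromosome, chr7:56439003-56439833 with a mean of 3.09, thus had a peak in all 4 replicates. Just outside the threshold, the 189 regions of 1 replicate had a median of 5.85 and a range of 3.65 to 9.32, which overlapped most of the range of the 2-replicate regions. Median width rose with support as well, from 299 bp in 1 replicate to 425, 492 and 635 bp in 2, 3 and 4 replicates, which is partly built in, since a merged region spans the peaks it joins.

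**Figure D1:**
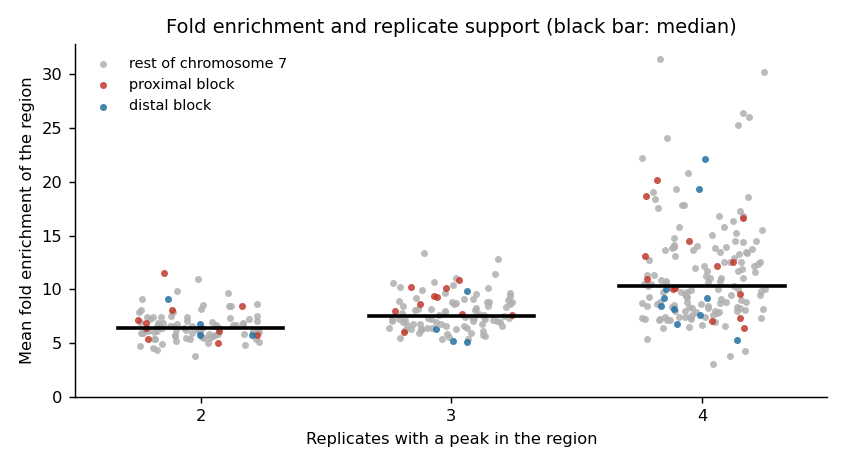
Each point is 1 recurrent region on chromosome 7, plotted by the number of replicates with a peak (horizontal axis) and its mean fold enrichment over those replicates (vertical axis, a ratio), with black bars at the medians and colours for the proximal block (72 to 77 Mb), the distal block (2 Mb from 100 Mb) and the rest. The medians rise from 6.39 to 7.49 and 10.3, and every region with a mean of at least 20 has a peak in all 4 replicates.

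Support followed the length of the peak lists. Replicate 1 had a peak in 334 of the 359 regions (93.0%), replicate 3 in 302 (84.1%), replicate 2 in 297 (82.7%) and replicate 4 in 208 (57.9%). Among the 101 regions of 3 replicates, replicate 4 was the one missing in 71, replicates 2 and 3 in 13 each and replicate 1 in 4. Replicate 4, the shortest list, thus set most of the difference between support in 3 and support in all 4.

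The replicate pairs among the 97 regions of 2 replicates were just as uneven. Replicates 1 and 3 shared 36 of them and replicates 1 and 2 shared 34. The pair of replicates 2 and 3 had 10, and the 3 pairs that include replicate 4 had 6, 4 and 7.

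Peaks inside recurrent regions were stronger than the remaining peaks of the same replicate. Their median fold enrichment was 9.09, 8.22, 8.16 and 7.97 in replicates 1 to 4, against 5.99, 5.82, 5.95 and 5.13 for chromosome 7 peaks outside them. The gap had the same direction in each replicate, and no test is given because recurrence and strength come from the same peak lists. Recurrent regions held 79.8% of the chromosome 7 peaks of replicate 1 and 92.5% of those of replicate 4, the longest and the shortest list.

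Within the 161 regions of all 4 replicates, fold enrichment varied between replicates with a median coefficient of variation of 20.7%, from 3.99% to 58.6%. Replicate 1 was the highest in 68 of them and replicate 4 the lowest in 87. Pearson's r of fold enrichment over these regions ran from 0.743 for replicates 1 and 4 to 0.830 for replicates 1 and 3, as a description across regions that share the same genome, cells and input. Fold enrichment values were often tied. Between 44.7% and 51.7% of the chromosome 7 peaks of a list had exactly the same value as another chromosome 7 peak of that list, so small differences between regions carry little information.

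The summits of different replicates fell close together. The distance between the outermost summits of an all-4 region had a median of 105 bp, and 78 of the 161 (48.4%) had all summits within 100 bp. Regions were 297 to 1586 bp wide with a median of 533 bp, and together they covered 208 kb or 0.131% of the chromosome. Only 12 were 1 kb or wider and only 5 held more peaks than replicates.

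Strong regions were few. Mean fold enrichment had a median of 8.01, lay under 10 in 258 regions (71.9%) and reached 20 in 10, all of them with a peak in each replicate. These 10 regions were spread over the chromosome, from 1.5 Mb to 152 Mb. The genes under them were not analysed here, since no GRCh37 annotation was used.

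The strongest was chr7:152160587-152161783, with fold enrichment of 31.9, 32.4, 35.4 and 25.9 in replicates 1 to 4 and a mean of 31.4 ± 3.95 (SD, n = 4). The next, chr7:45039148-45040166, had 32.5, 26.7, 35.9 and 25.6, with a mean of 30.2 ± 4.86 (SD, n = 4). Replicate 3 was the highest and replicate 4 the lowest at both, and their ranges overlapped. The region chr7:36192163-36193085 followed at 27.5, 27.8, 26.5 and 23.8, with a mean of 26.4 ± 1.7995 (SD, n = 4), and was the most even of these.

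The widest region of the chromosome, chr7:21466464-21468049, was also among the strongest. It was 1586 bp wide, joined 6 peaks and had summits up to 787 bp apart, so its single value stands for more than 1 site. Its fold enrichment was 31.8, 24.0, 25.0 and 23.2, with a mean of 26.0 ± 3.93 (SD, n = 4), where replicate 1 stood above the other replicates.

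The remaining strong regions outside the blocks had means between 20.8 and 25.3. At chr7:1499040-1499787 the values were 24.7, 26.2, 28.9 and 21.3 (mean 25.3 ± 3.16, SD, n = 4). At chr7:105925345-105926035 they were 26.8, 23.3, 25.3 and 20.8 (mean 24.0 ± 2.57, SD, n = 4). At chr7:143533679-143534500 they were 29.6, 23.3, 18.5 and 17.4 (mean 22.2 ± 5.56, SD, n = 4), the widest spread of the 10. The differences in mean among these 3 were smaller than the spread between replicates of the most variable one.

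The regions were spread unevenly along the chromosome. In 159 bins of 1 Mb the median was 1 region, the mean 2.26 and the highest 17. Of these bins, 60 (37.7%) held none, 24 held 1, 48 held 2 to 4 and 21 held 5 to 9. The 27 bins with 5 or more regions made up 17.0% of the bins and held 209 regions (58.2%).

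Only 6 bins held 10 or more regions, with 69 regions (19.2%) between them. The bin at 100 to 101 Mb was the densest with 17 regions, 10 of them with a peak in all 4 replicates. Those at 1 to 2 Mb and 44 to 45 Mb held 11 each, and those at 6 to 7 and 99 to 100 Mb and the bin that ends 3 Mb after 100 Mb held 10 each. The bins at 44 to 45 Mb and 100 to 101 Mb had the most all-4 regions among them, 8 and 10.

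Around 100 Mb the density changed steeply from one bin to the next. From 95 Mb on, successive bins held 2, 0, 7, 3, 10, 17, 1, 10, 0 and 1 regions. The 27 regions from 99 to 101 Mb came to 13.5 per Mb, next to 1 region in the Mb that follows. The first 3 Mb of the short arm were also dense, with 28 regions or 9.33 per Mb.

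Empty stretches were long. There were 8 runs of at least 3 empty bins in a row, which took up 31 bins, the longest being 49 to 55 Mb and 67 to 72 Mb. Unsequenced stretches of the reference were not taken out of the bins, so an empty bin may hold no readable sequence. Between neighbouring regions the widest gap was 6.96 Mb and ended at the region of EGFR, and the next was 5.53 Mb and ended at the first region of the proximal block. The distance from a region to the nearer of its neighbours had a median of 65.7 kb, and 48 regions (13.4%) had another within 10 kb, against 18.6% on the other autosomes.

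**Figure D2:**
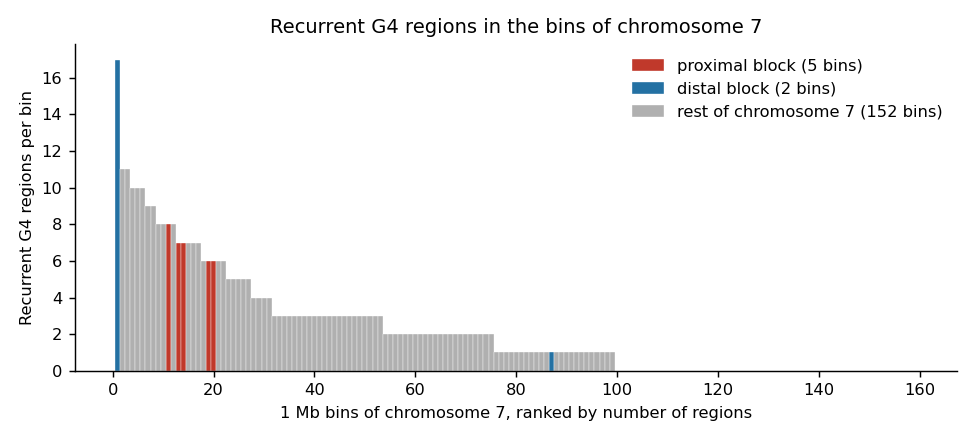
Bars give the number of recurrent regions (vertical axis) in each of the 159 bins of 1 Mb, ranked from densest to emptiest (horizontal axis), with the 5 bins of the proximal block in red and the 2 bins of the distal block in blue. All 5 red bars hold 6 to 8 regions, while the blue bars are the densest bin with 17 regions and a bin with 1.

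The bin counts of the replicates followed each other. Pearson's r over the 159 bins ran from 0.880 for replicates 1 and 4 to 0.935 for replicates 1 and 3, as a description across bins that share base composition and gene content. In the densest bin, replicates 1 to 4 had 18, 18, 16 and 11 peaks. Every list had a dense bin there, with replicate 4 the lowest as on the whole chromosome.

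Next, 2 blocks of the long arm, singled out for duplicated genes, were set against the other bins. The proximal block, 72 to 77 Mb, holds the Williams-Beuren region and the duplications that flank it, and it had 34 regions or 6.80 per Mb. The distal block, the 2 Mb from 100 Mb on, had 18 regions or 9 per Mb. The duplicated genes RASA4, RASA4B and POLR2J2 lay beyond its end, so its density is not that of these genes. The other bins had 307 regions or 2.02 per Mb, so the blocks were 3.36 and 4.45 times as dense. These other bins include the empty ones, and against bins with at least 1 region the ratios were 2.03 and 2.69. Both blocks were named with the densities known, so these ratios are a description and carry no p-value.

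The excess was present in each replicate. In the proximal block replicates 1 to 4 had 7.20, 5.40, 7.20 and 4.80 peaks per Mb, against 2.41, 1.86, 2.01 and 1.27 in the other bins, with ratios of 2.99, 2.90, 3.58 and 3.77 (mean 3.31 ± 0.429, SD, n = 4). In the distal block they had 9.5, 10, 9 and 5.5 peaks per Mb, with ratios of 3.95, 5.38, 4.47 and 4.32 (mean 4.53 ± 0.607, SD, n = 4). No value of a block overlapped the values of the other bins, and replicate 4 was the lowest in all 3.

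**Figure D3:**
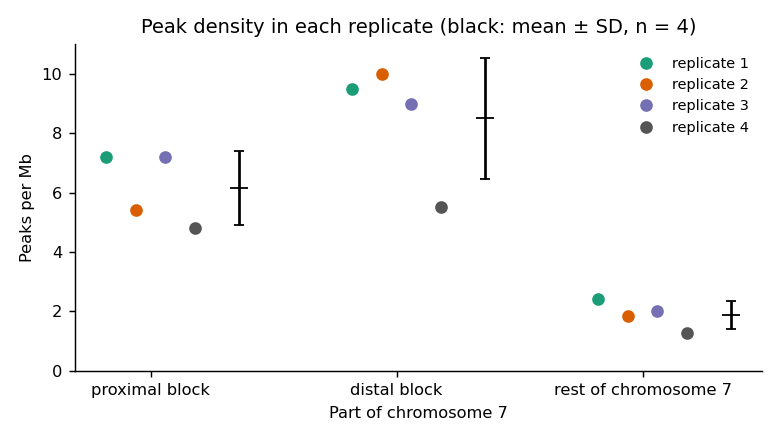
Points give the peaks per Mb (vertical axis) of each replicate in the proximal block (72 to 77 Mb), the distal block (2 Mb from 100 Mb) and the rest of chromosome 7, with black bars for the mean ± SD of the 4 replicates. The blocks lie between 4.80 and 10 peaks per Mb and the rest between 1.27 and 2.41.

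Some windows of the same length held more regions than each block. Of the 155 windows of 5 Mb that start on a whole Mb, 4 held more than the 34 regions of the proximal block, with a maximum of 41 in the window that starts at 98 Mb and a median of 8. These 4 overlap each other, and all include the densest bin, at 100 to 101 Mb in the distal block. Of the 158 windows of 2 Mb, 3 held more than the 18 regions of the distal block, with a maximum of 27 at 99 to 101 Mb and a median of 3. That window shares the densest bin with the block, and the others, at 0 to 2 and 1 to 3 Mb, held 19 and 20.

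The 2 blocks were built differently. In the proximal block the regions were spread over all 5 bins, with 6, 7, 7, 8 and 6 regions from 72 Mb on. In the distal block 17 of the 18 regions lay in the bin at 100 to 101 Mb. The other bin of the block, taken alone, had 0.494 times the density of the other bins, from its 1 region, so the excess of the distal block rested on 1 bin. With the Mb that follows the block added, an alternative chosen after seeing the data, the ratio was 4.73.

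The difference in fold enrichment between the proximal block and the other bins was smaller than its spread between the 4 replicates. The median over peaks in regions was 11.2, 9.04, 9.43 and 6.82 in replicates 1 to 4, against 8.98, 8.19, 8.07 and 8.05 in the other bins. The difference was 2.21, 0.85, 1.36 and -1.22, with a mean of 0.80 ± 1.46 (SD, n = 4), and the exact two-sided sign-flip permutation test gave p = 0.375. It was higher in 3 of 4 replicates and lower in replicate 4. The mean was 1.59 ± 0.535 without replicate 4 and 0.261 ± 1.29 without replicate 1 (SD, n = 3). With the 3000 strongest peaks of each list it was 0.226 ± 0.770 (SD, n = 4), so its size rested on single replicates and on the peaks kept.

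In the distal block the median was 7.37, 8.17, 7.88 and 7.85 in replicates 1 to 4, lower than in the other bins in each. The difference was -1.61 in replicate 1 and -0.022, -0.181 and -0.195 in replicates 2 to 4, with a mean of -0.503 ± 0.744 (SD, n = 4). The exact two-sided sign-flip permutation test gave p = 0.125, the smallest that 4 replicates allow, so no comparison over these replicates can pass 0.05. Replicate 1 had the largest difference, but without it, with regions chosen anew from the other lists, the mean was -0.558 ± 0.390 (SD, n = 3). The size depended on the regions kept. It was -0.987 ± 0.551 with regions of at least 3 replicates, -1.69 ± 0.911 with regions of all 4 and -0.235 ± 0.671 with peaks of a -log10 q of at least 4 (SD, n = 4).

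Replicate support in the blocks lay within counting error of the rest. Full support was found for 14 of 34 regions of the proximal block (41.2%, exact 95% interval 24.6 to 59.3), for 10 of 18 of the distal block (55.6%, 30.8 to 78.5) and for 137 of 307 elsewhere (44.6%, 39.0 to 50.4). Mean fold enrichment of at least 10 was reached by 14 regions (41.2%), 3 regions (16.7%) and 84 regions (27.4%) in the same order. Close neighbours were most common in the distal block, where 7 regions (38.9%) had another within 10 kb, against 6 (17.6%) in the proximal block and 35 (11.4%) elsewhere.

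The strongest region of the proximal block, chr7:74202965-74203755, had fold enrichment of 25.9, 18.7, 21.7 and 14.5 (mean 20.2 ± 4.83, SD, n = 4). It was followed by chr7:72649267-72650044 at 23.1, 15.7, 18.5 and 17.4 (mean 18.7 ± 3.19, SD, n = 4) and by chr7:76009163-76009680 at 20.7, 14.9, 19.95 and 10.97 (mean 16.6 ± 4.56, SD, n = 4). Replicate 1 was the highest at each of these. The next 2, chr7:73153001-73153642 and chr7:75368109-75369053, had means of 14.5 ± 2.26 and 13.1 ± 2.55 (SD, n = 4), again with replicate 1 at the top.

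The distal block had a steeper order. Its strongest region, chr7:100136372-100137056, had 27.3, 21.1, 19.3 and 20.9 (mean 22.1 ± 3.52, SD, n = 4), and chr7:100183369-100184349 had 22.99, 15.6, 23.9 and 14.7 (mean 19.3 ± 4.81, SD, n = 4). These overlapped each other. The third, chr7:100270893-100271577, was lower than both in every replicate at 10.9, 8.22, 11.4 and 9.70 (mean 10.1 ± 1.43, SD, n = 4), and chr7:100209457-100210377 and chr7:100026664-100027622 followed at 9.20 ± 1.38 and 9.19 ± 0.758 (SD, n = 4). The single region in the second Mb of the block, chr7:101526159-101526540, had a peak in replicates 1 and 2 only, at 4.66 and 6.79.

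Gene names were taken from the gene windows in which the study lists G4s as specific to prostate cancer, after a comparison with HepG2 liver cancer and K562 leukaemia cells. G4s counted as common to those lines are not in that list, and the windows were selected for holding peaks, so their overlap with the peak files is no separate evidence. Chromosome 7 had 84 windows, and 45 of them held a recurrent region. Neighbouring genes share regions, so the 45 windows came to 33 different regions, 9.19% of the 359, of which 14 had full support, 3 were found by 3 replicates and 16 by 2.

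The regions in these windows are thus a selected subset. Their median mean fold enrichment was 7.37, against 8.12 for regions outside them, and 42.4% against 45.1% had a peak in all 4 replicates. Apart from the FAM115C region, none of the 10 regions with a mean of at least 20 lay in a window.

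In the proximal block all 7 listed windows held a recurrent region, 5 regions in all. STAG3L3, a STAG3-like pseudogene, shared its region chr7:72476243-72476764 with RP11-313P13.3, at 9.38, 5.67, 6.40 and 4.10 (mean 6.39 ± 2.21, SD, n = 4). UPK3B, which encodes a uroplakin of epithelial membranes, had 15.8, 7.98, 7.47 and 6.82 at chr7:76141543-76142026 (mean 9.52 ± 4.22, SD, n = 4), so replicate 1 stood apart, and the region's edge was 1797 bp from the centre of the window.

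The other named regions of that block had less support. CLDN3, a tight junction protein, had peaks in replicates 2 and 3 only, at 7.27 and 5.00. GTF2IRD2, a GTF2I-related transcription factor gene, had 8.24, 9.24 and 5.42 in replicates 1, 3 and 4. GTF2IP1, a pseudogene of GTF2I that shares its region with AC138783.13, had 4.88 and 5.09 in replicates 2 and 4.

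The distal block had 2 listed windows and neither held a recurrent region. RABL5, an intraflagellar transport gene, had a peak of 4.91 in replicate 2 only, and COL26A1, a collagen gene, one of 5.17 in replicate 3 only. The duplicated genes RASA4, RASA4B and POLR2J2 lay just beyond it, in the Mb that follows the block.

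RASA4 and RASA4B, near-identical genes for a Ras GTPase-activating protein, each had a peak in all 4 replicates. RASA4B, at chr7:102158126-102158591, had 6.12, 8.75, 9.97 and 10.4 (mean 8.80 ± 1.92, SD, n = 4). RASA4, 99.0 kb farther on at chr7:102257135-102257633, had 7.71, 7.28, 9.24 and 8.68 (mean 8.23 ± 0.896, SD, n = 4). RASA4 was higher in replicate 1 and lower in replicates 2 to 4, with a mean difference of -0.572 ± 1.505 (SD, n = 4) and an exact sign-flip permutation p = 0.5. POLR2J2, a copy of an RNA polymerase II subunit gene, had a peak of 4.46 in replicate 3 only.

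The strongest named region was that of FAM115C, now TCAF2, which encodes a factor associated with the TRPM8 ion channel. It had 22.9, 17.2, 22.6 and 20.7 at chr7:143317521-143318158 (mean 20.8 ± 2.65, SD, n = 4). Of its 31-base words upstream of the start, 92.7% occurred more than once in GRCh38. Most of the upstream sequence printed for this gene thus had a copy elsewhere in the reference.

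Close to it lay the windows that the study's list names ARHGEF35 and ARHGEF5. ARHGEF35 shared chr7:143991098-143991729 with ARHGEF34P and OR2A9P, at 13.2, 11.4, 6.68 and 8.27 (mean 9.89 ± 2.96, SD, n = 4). ARHGEF5 shared chr7:144052091-144052851 with OR2A1-AS1, at 16.2, 15.1, 15.1 and 9.63 (mean 14.01 ± 2.96, SD, n = 4).

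The region of the ARHGEF35 window was the lower of the pair in 4 of 4 replicates. The difference was -2.93, -3.73, -8.47 and -1.36, with a mean of -4.12 ± 3.06 (SD, n = 4), and the exact sign-flip permutation test gave p = 0.125, the smallest possible here. All of the 31-base words in both upstream sequences occurred more than once in GRCh38, with a median of 3 copies. The 2 upstream sequences lie farther apart in GRCh38, from 144196083 to 144355152, than the 61.0 kb between the 2 regions. The region of the RP4-545C24.1 window, chr7:143892481-143893040, lay at a spacing from the ARHGEF5 region closer to that of the upstream sequences. The sequence printed for ARHGEF35 may therefore belong to that region and not to the ARHGEF35 window's region compared here. Positions were not converted between builds. How reads were placed between copies was not tested.

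GTF2IRD2 and GTF2IP1 lay 386 kb apart and could be compared in replicate 4 only, where GTF2IRD2 was higher by 0.327. RASA4, RASA4B, STAG3L3, GTF2IRD2 and GTF2IP1 had no entry in the promoter table.

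Outside the duplicated families, PCLO, which encodes the presynaptic protein piccolo, had a region in all 4 replicates. It lay at chr7:82791688-82792448 with 10.4, 7.61, 9.97 and 12.3 (mean 10.1 ± 1.92, SD, n = 4), with replicate 4 the highest. Its upstream sequence had 1 motif and no repeated 31-base word. ZNF736, a KRAB zinc finger gene, had a mean of 8.01 ± 1.14 and SMKR1 one of 7.21 ± 1.40 (SD, n = 4), both with the region over the window's centre.

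The other windows with all 4 replicates carried noncoding or clone-based names. RP4-800G7.2 and SNORD112 shared a region with 13.4, 15.7, 12.5 and 10.1 (mean 12.9 ± 2.32, SD, n = 4). CTD-2526L21.3 had a mean of 9.57 ± 0.652, RNA5SP230 of 9.08 ± 1.21 and RP4-545C24.1 of 7.11 ± 1.43 (SD, n = 4). The RP4-545C24.1 region had 9.23 in replicate 1 and 6.29 to 6.62 in the others.

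Among 5 listed genes chosen for their role in cancer, 3 had a recurrent region, each in 2 replicates, beside 53.6% of all windows on the chromosome. PDGFA, the A chain of platelet-derived growth factor, had 6.81 and 7.22 in replicates 1 and 3. EGFR, the epidermal growth factor receptor, had 7.43 and 5.98 in the same replicates, at chr7:55086543-55087137. STEAP1, a surface antigen of prostate cancer cells, had 5.99 and 5.32, again in replicates 1 and 3.

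STEAP4, a related metalloreductase, had a peak of 6.99 in replicate 1 only, and IGFBP3, which binds insulin-like growth factors, one of 6.20 in replicate 1 only, so neither was recurrent. All of these values lay below the median of 8.01 over the 359 regions.

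**Figure D4:**
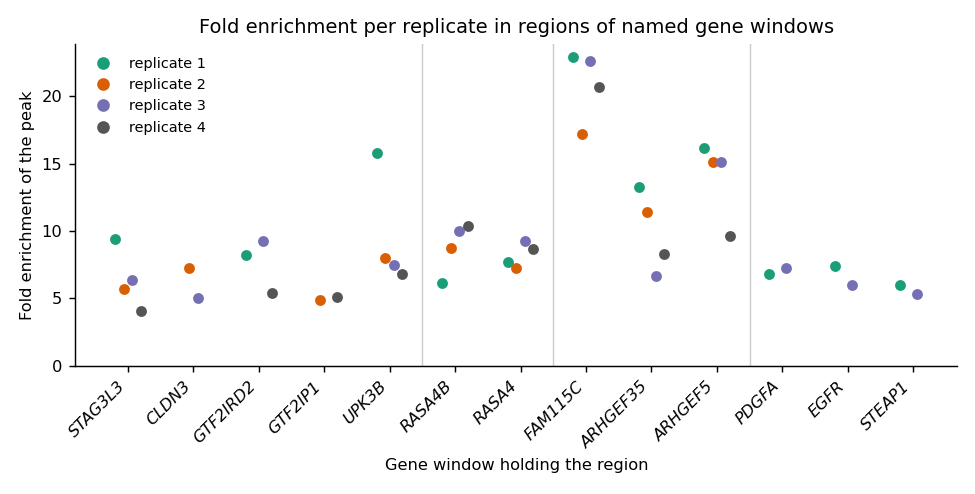
Points give the fold enrichment (vertical axis, a ratio) of each replicate's peak in the region of a named gene window (horizontal axis), from left to right for the proximal block, the RASA4 copies, the genes near 143 to 144 Mb and the listed cancer genes. FAM115C lies between 17.2 and 22.9 in all 4 replicates, and a missing point means that the replicate had no peak.

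RefSeq promoters were matched by symbol for 22 of the 45 windows with a recurrent region, 1 of them through an older symbol, and gave 31 entries since some genes have several. A motif was found in 13 of the 31 entries (41.9%), against 23.5% of all 35116 promoters in the table and 23.3% of the 1779 on chromosome 7. Several entries of 1 gene count for the same region. Of the 18 entries whose region covered the window's centre, 7 held a motif. Median GC content was 69.6% in the matched entries and 58.0% over the chromosome. These are descriptions of the reference around genes chosen for holding peaks.

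At least 50% of the 31-base words were repeated in 5 of the 31 entries, against 106 of the 1779 entries on chromosome 7 (5.96%). The 5 belonged to FAM115C, ARHGEF35, ARHGEF5 and OR2A1-AS1, which all lie at 143 to 145 Mb and so outside both blocks. In 15 of the 22 genes no word was repeated, and CLDN3 and UPK3B, the matched genes of the proximal block, were among them. STAG3L3, GTF2IRD2 and GTF2IP1 of that block had no entry and no gene of the distal block was matched, so these could not be scored. Whether the blocks as a whole consist of repeated sequence was not measured, since no GRCh37 genome was used.

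Lastly, chromosome 7 was compared with the rest of the genome. Its peak density was 1.02 ± 0.00661 times that of the other autosomes (SD, n = 4), higher in 4 of 4 replicates, with an exact sign-flip permutation p = 0.125. By the density of recurrent regions it ranked 8 among 22 autosomes, with 2.26 per Mb.

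Peaks on chromosome 7 were slightly stronger than elsewhere. Their median fold enrichment inside recurrent regions exceeded that of the other autosomes by 0.522 ± 0.269 (SD, n = 4; 8.36 against 7.84), in 4 of 4 replicates (exact permutation p = 0.125). The share of peaks lying in all-4 regions was higher by 3.94 ± 1.60 percentage points, also in 4 of 4. Chromosome 7 ranked 2 among 22 autosomes by the share of regions with all 4 replicates, which ran from 30.8% to 47.7%.

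Chromosomes 3, 11 and 16 had similar numbers of recurrent regions, 393, 357 and 359. Peak density on chromosome 7 was 1.15 ± 0.0493 times that of chromosome 3, 0.831 ± 0.0313 times that of chromosome 11 and 0.568 ± 0.00684 times that of chromosome 16 (SD, n = 4). Each ratio lay on the same side of 1 in all replicates (exact permutation p = 0.125 for each). Median fold enrichment was higher on chromosome 7 by 0.566 ± 0.300, 0.594 ± 0.252 and 0.356 ± 0.472 (SD, n = 4), in 4, 4 and 3 of 4 replicates. The comparison with chromosome 16 gave an exact permutation p = 0.25, and its difference was within the spread between replicates.

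**Figure D5:**
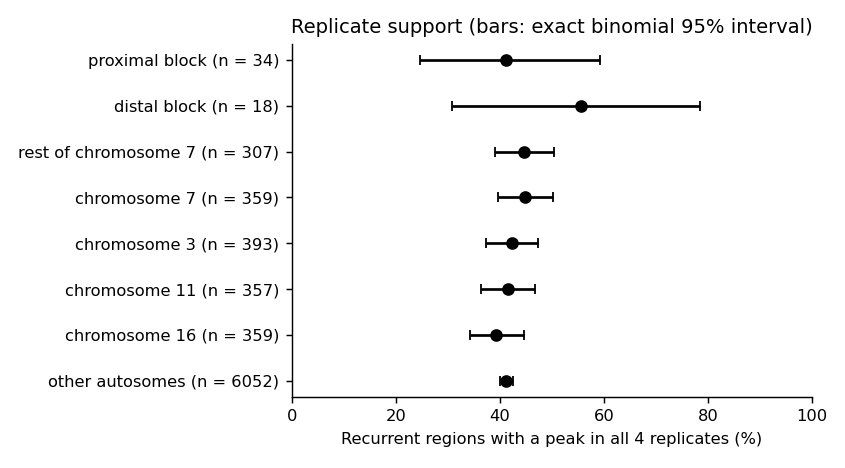
Points give the percentage of recurrent regions with a peak in all 4 replicates (horizontal axis) for the blocks of chromosome 7, the rest of it, the whole chromosome and the chromosomes compared with it (vertical axis), and bars are exact binomial 95% intervals. The interval of chromosome 7, 39.6 to 50.2, overlaps those of chromosomes 3, 11 and 16, whose shares are 42.2%, 41.5% and 39.3%.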

How the data were processed

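BG4 ChIP-seq was performed by the authors on C4-2 cells in 4 replicates with 1 input. Per the labels, bcl2fastq 1.8.4, Bowtie2 2.2.5, SAMtools 1.11, MACS2 2.1.1 and hg19 were used; the study's methods name another build, but a peak on chromosome 1 ended at 249201060, which the hg19 chromosome holds and the later build does not. The deposited peak lists, 1 per replicate, give for each peak a score, a fold enrichment (a ratio, column 7), the -log10 p-value, the -log10 q-value and the summit. Depth per sample was unknown. The lowest -log10 q was 1.30, which matches a threshold of q = 0.05.

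Peaks were assigned to 1 Mb bins and blocks by summit, and merged regions by their midpoint. Fold enrichment of a region was the mean over replicates of each replicate's highest peak. Densities and medians were computed per replicate and compared by exact two-sided sign-flip permutation tests that enumerate all sign changes (Python 3.11.15). Exact binomial intervals came from scipy 1.17.1. Tables were handled with pandas 2.3.3 and numpy 2.4.6 and plots drawn with matplotlib 3.10.9. Calls of support were tested on simulated sites that lay far apart, so close neighbours and regions joining several peaks of a replicate were not covered. Peak counts and shares carry counting error only.

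Regions were named by rule: the 10 strongest with all 4 replicates, the 5 strongest per block, the 5 densest bins with ties, the widest region, gene windows in a block or with all 4 replicates, 5 cancer genes (EGFR, PDGFA, IGFBP3, STEAP1, STEAP4) and copied genes. FAM115C came in by that rule; POLR2J2 and the region in the second Mb of the distal block were added after their values were seen. Members and lists were chosen with earlier results of these data known. Gene lists that needed a GRCh37 annotation were not used. RefSeq promoters (GRCh38.p14) were matched by symbol, and words of 31 bases were counted over the 24 chromosomes of hg38. Alternatives changed the number of replicates, the overlap, the -log10 q minimum, the number of peaks per list, the block edges, the empty bins of the reference, the measure of strength and the replicates included.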

Additional observations from a re-analysis of the deposited data

Results flagged for a closer look

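Flags were set on the gap between a replicate and the nearest of the others, as a share of the range of the 4 values. Of 44 measures with 4 replicate values, 4 had a share above the limit used, from 0.842 to 0.891. The largest share among the measures not flagged was 0.790. About 1 in 20 groups of 4 values is flagged at this limit by chance. The difference in median fold enrichment between the distal block and the other bins was -1.61 in replicate 1 and between -0.195 and -0.022 in the others. Replicate 1 was high at the UPK3B region (chr7:76141543-76142026), with 15.8 against 6.82 to 7.98, and at the RP4-545C24.1 region (chr7:143892481-143893040), with 9.23 against 6.29 to 6.62. Replicate 4 was low at the ARHGEF5 region (chr7:144052091-144052851), with 9.63 against 15.1 to 16.2.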

How the results depend on the processing

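The number of regions depended on the definition: requiring all 4 replicates left 161, and taking the 3000 strongest peaks of each list left 188, with 50.5% of regions then in all 4. Without its first bin, at 100 to 101 Mb, in an alternative chosen after seeing the data, the density ratio of the distal block fell to 0.494 and its share of all-4 regions to 0%, from 1 region. Leaving out each replicate in turn gave 284 to 342 regions, density ratios of 3.17 to 3.396 for the proximal block, 3.96 to 4.98 for the distal block and 1.03 to 1.05 for the chromosome against the other autosomes. Differences in median fold enrichment were then 0.261 to 1.59 in the proximal and -0.720 to -0.423 in the distal block, and the shares of regions in all of the 3 remaining replicates were 56.1 to 67.8% on the chromosome, 51.9 to 64.3% in the proximal block and 64.7 to 72.2% in the distal block. With empty bins left out of the reference the density ratios were 2.03 and 2.69. The proximal ratio was above 1 in its 11 alternatives and the difference in fold enrichment above 0 in all 11. In most of these the difference was smaller than its SD between replicates. All alternatives reuse the same 4 lists, and for each block 1 of them takes -log10 p in place of fold enrichment. For the distal block the ratio was above 1 in 12 of 13, and the difference in fold enrichment was below 0 in all 12, from -1.69 (all 4 replicates) to -0.235 (-log10 q of at least 4). No paired analysis was possible because there was 1 condition, so replicate numbers pair no samples of different groups. Differences between stretches of the genome were taken within each replicate. The 4 replicates cannot give p below 0.125, the input signal was not analysed, and peak lists carry no depth.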

Other observations

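In the Mb just beyond the distal block, between a bin with 1 region and an empty one, 10 regions were found, and 6 of them had a peak in all 4 replicates. Their mean fold enrichment lay between 4.70 and 10.04, so none was among the strongest of the chromosome. The RASA4 and RASA4B regions were 2 of those 6.

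The 7 regions from 143 to 145 Mb included 5 with a peak in all 4 replicates. Beside the strong FAM115C region, chr7:143533679-143534500 had a mean of 22.2, and 2 regions, chr7:143077879-143078345 and chr7:143598462-143599442, had peaks in 2 replicates with means of 4.34 and 6.15.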
